A study of Saccharomyces cerevisiae with 18 samples.

Results

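The mRNAs described here encode the proteasome of budding yeast and its transcriptional regulator. The set was chosen by locus name and holds 33 of the 7127 features counted: 14 genes of the 20S core (SCL1 and the PRE and PUP genes), 10 of the 19S base, 8 of the 19S lid (the RPT and RPN genes) and the regulator RPN4. The proteasome is the large protease that degrades proteins marked with ubiquitin. Its core is a barrel of alpha and beta rings with the proteolytic sites inside, and the 19S particle caps the barrel. The base of the cap unfolds the substrate with a ring of ATPases, and the lid removes the ubiquitin chain. Rpn4 is a short-lived transcription factor that binds upstream of most subunit genes and is itself degraded by the proteasome, which closes a feedback loop.

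Poly(A) RNA was sequenced in 18 libraries of strain W303, 3 libraries in each of 6 groups, all from asynchronous cultures in log phase in YPD that were ground frozen. 3 groups were affinity purifications of nuclear pore complexes (NPCs), the channels through which mRNAs leave the nucleus: basket-containing pores, caught with IgG, and, both caught with a GFP nanobody, basket-less pores and all NPCs. The nuclear basket is the filamentous structure on the nucleoplasmic face of the pore. Each matrix had a background purification, called the PrA control for IgG and the GFP control for the nanobody, and the input was total extract. Which proteins carried the tags is not stated in the sources used here, and no mRNA level checks which pores came down. Basket-containing pores differ from the other pores in the matrix as well as in the basket, and these cannot be told apart in a direct comparison.

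Library totals ran from 10592840 to 16620246 counts, and the lowest count of any member in any library was 567, so all 33 members were tested. Fold changes are log2 values ± standard error from 1 edgeR quasi-likelihood fit over the 18 libraries, with 6429 features tested and p-values adjusted over all of them by Benjamini-Hochberg. A gene is called higher or lower at an adjusted p below 0.05, and n is 3 libraries per group throughout. The labels do not say whether replicates were separate cultures, so the p-values speak for the spread of these libraries alone, and that spread may be technical. Between replicates, the chi-square of the counts, per degree of freedom, ran from 1.58 to 20.6, and replicate 3 of the PrA control stood furthest from its partners. CPM values are counts scaled to library size with TMM factors. These factors were 0.853 to 0.863 in basket-containing pores and 0.970 to 1.10 in the other groups, so CPM values are not plain shares of a library. They are relative values, and a gene lower than in its control can nonetheless have been recovered in greater quantity.

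The subunit genes carry a shared promoter element. The proteasome-associated control element, the site that Rpn4 binds, was searched as the letters GGTGGCAAA and as the shorter GTGGCAAA that it contains, on both strands, in the 300 bases before each start codon of the RefSeq R64 genome (strain S288C). The 9 letters were found upstream of 27 of the 33 members (81.8%), against 72 of the 5988 windows of all nuclear protein-coding genes (1.2%). The 8 letters were found upstream of 30 members (90.9%), against 158 of all windows (2.64%). PRE5, PUP1 and RPN8 had only the 8 letters, and RPN10, RPN13 and RPN4 had neither. The windows below belong to members that moved in opposite directions in the purifications, and show that they share the element. They are written 5′ to 3′ on the strand of the gene, with the element in capitals.
PRE9 (core, chrVII:761217-761257, plus strand): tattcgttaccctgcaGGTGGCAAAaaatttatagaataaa
PUP3 (core, chrV:349505-349545, minus strand): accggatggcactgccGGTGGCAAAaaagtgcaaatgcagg
RPN1 (base, chrVIII:164832-164872, minus strand): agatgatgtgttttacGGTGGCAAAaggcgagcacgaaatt
RPT4 (base, chrXV:813796-813836, minus strand): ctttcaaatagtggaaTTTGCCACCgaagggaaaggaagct
RPN3 (lid, chrV:196837-196877, plus strand): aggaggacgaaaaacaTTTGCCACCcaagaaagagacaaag
RPN8 (lid, chrXV:817079-817118, minus strand): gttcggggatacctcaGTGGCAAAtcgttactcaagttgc

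PRE9, PUP3 and RPN1 carry the 9 letters as written, RPT4 and RPN3 carry them on the other strand, and RPN8 lacks the first G. Of the genes outside the set, 45 tested features carry the 9 letters. The matches describe the letters only.

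In the input, the subunit mRNAs stood at similar levels per kilobase of coding sequence. The median over the 32 subunits was 297 CPM per kilobase, and the lowest (RPN9, 183) and highest (PRE9, 428) lay 2.34-fold apart. The spread was wider in every purification: 5.62-fold among basket-containing pores, 4.15-fold among basket-less pores, 3.26-fold for all NPCs, 8.94-fold for the PrA control and 7.75-fold for the GFP control. Core subunits led the order in the input, where PRE9, PUP3 and PRE1 at 426 to 428 CPM per kilobase did not differ beyond their SDs of 18 to 43. In basket-containing pores the order was led by RPN2, at 419 ± 3.7 CPM per kilobase (SD), and PRE2, at 402 ± 11, and PRE9 had dropped to 103 ± 2.6. RPN4 was the lowest member per kilobase in the input, at 136 ± 3, and was among the top members in basket-containing pores, at 387 ± 5.4, close to RPN6 at 384 ± 4.7.

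Core mRNAs made up 0.191% ± 0.0039 of all counts for basket-containing pores, 0.257% ± 0.0021 for basket-less pores and 0.227% ± 0.0021 for all NPCs. They made up 0.473% ± 0.0068 for the PrA control, 0.468% ± 0.0028 for the GFP control and 0.357% ± 0.0005 for the input (SD, n = 3 libraries). The share was lowest in the pores and highest in the control purifications, with the input between. The pores, the input and the controls stood apart by many times their SDs, while the PrA control and the GFP control lay within theirs. Base mRNAs held a similar share everywhere, from 0.377% ± 0.0037 in basket-less pores to 0.399% ± 0.0026 in the GFP control. Lid mRNAs were highest in the input, at 0.230% ± 0.0036, and lower in each purification, from 0.153% ± 0.0017 in the GFP control to 0.195% ± 0.0038 in all NPCs.

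**Figure D1:**
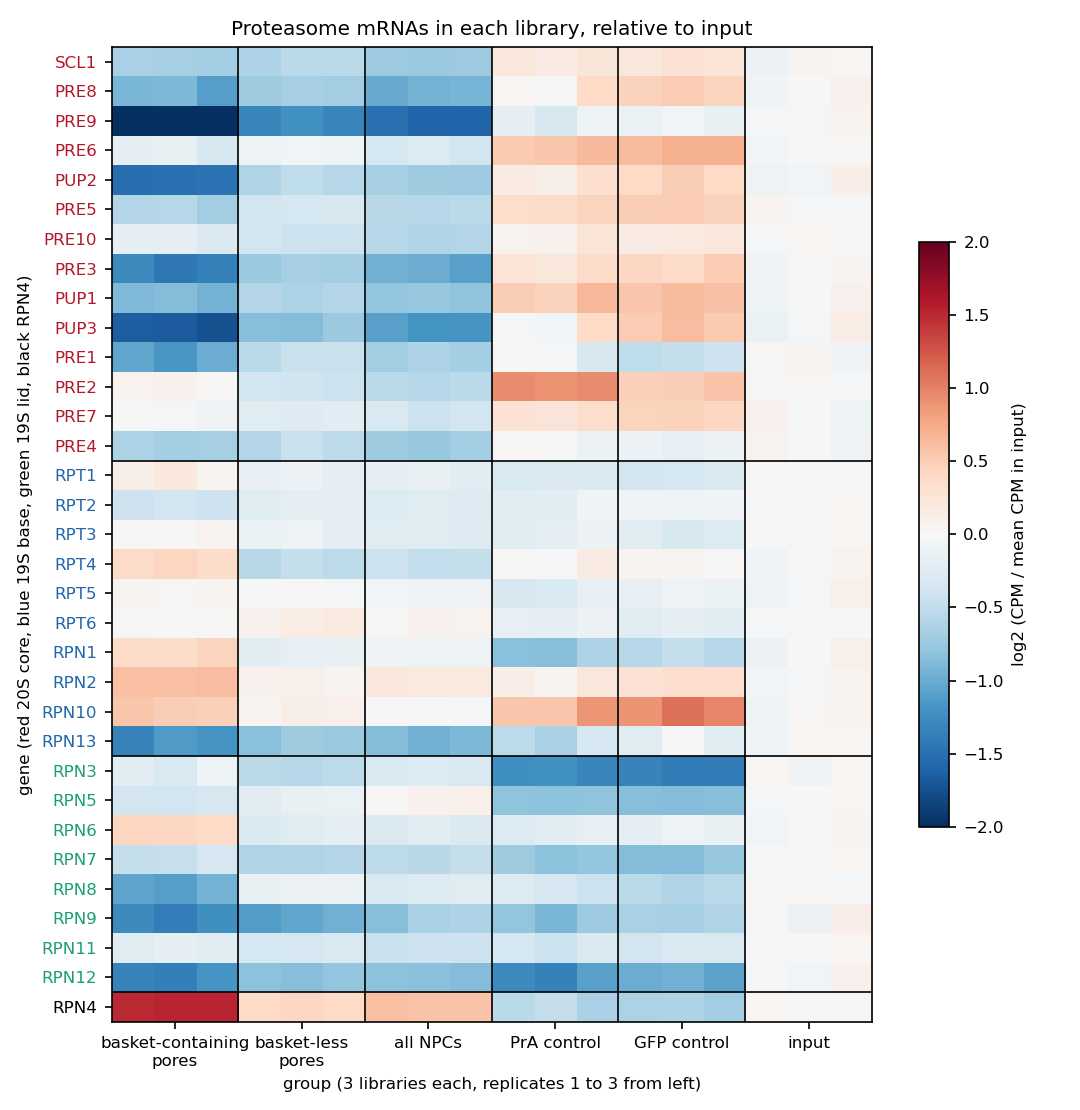
Level of each of the 33 mRNAs (rows) in each of the 18 libraries (columns, 3 per group), as the log2 ratio of its CPM to its mean CPM in the input; the colour scale is capped at -2 and 2. Most core genes (upper block) are blue in the 9 pore libraries and red in the control libraries, the lid (lower block) is blue in the controls, and RPN4 (bottom row) is red in the pores and blue in the controls.

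Every core mRNA was lower in basket-containing pores than in the PrA control. All 14 were called lower and 0 higher in edgeR, with a median log2 fold change of -0.98, against 46.5% of all features called lower and 43.8% called higher, with a median of -0.07. For basket-less pores over the GFP control, 13 of 14 were called lower and 0 higher, with a median of -0.88, against 35.5% of all features lower and 47.1% higher, with a median of 0.11. In all NPCs over the GFP control, 14 of 14 were lower, with a median of -1.05, against 37.6% of all features lower and 46.9% higher, with a median of 0.11. Basket-less pores and all NPCs share the GFP control libraries. Counts of 0 higher core genes in these comparisons were also 0 at an unadjusted p under 0.05 and in DESeq2's Wald test. Under each alternative scaling, filter and test, 13 or 14 of the 14 core genes were called lower. The controls themselves were enriched in core mRNAs over the input, as described further on.

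The outer alpha rings, which gate entry into the barrel, were lower throughout. All 7 alpha genes were called lower in the 3 comparisons, with medians of -1.02 in basket-containing pores over the PrA control, -0.84 for basket-less pores over the GFP control and -1.04 in all NPCs over the GFP control. PRE9 (YGR135W, chrVII:761392-762168), the alpha3 gene and the only dispensable core subunit, had the largest fall in basket-containing pores. It had 77.6, 81.2 and 81.1 CPM in basket-containing pores, against 293, 265 and 310 CPM in the PrA control. No pore library came near a control library. The log2 fold change was -1.86 ± 0.055 (adjusted p = 5.57e-21). In the other pores PRE9 had 134, 143 and 133 CPM in basket-less pores and 119, 111 and 110 CPM in all NPCs, against 303, 318 and 301 CPM in the GFP control. The groups stayed apart, with log2 fold changes of -1.16 ± 0.052 in basket-less pores (adjusted p = 1.27e-16) and -1.44 ± 0.052 for all NPCs (adjusted p = 1.21e-18). PUP2 (YGR253C), alpha5, fell by 1.70 on the log2 scale in basket-containing pores, and PRE10 (YOR362C), alpha7, by 0.36.

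The beta genes that carry the proteolytic sites also fell in all 3 comparisons. PRE3 (YJL001W), the caspase-like beta1 subunit and the only member with an intron, changed by -1.64 in basket-containing pores over the PrA control, -1.13 in basket-less pores and -1.45 for all NPCs over the GFP control. PUP1 (YOR157C), the trypsin-like beta2 subunit, changed by -1.43, -1.20 and -1.37 in the same comparisons. PRE2 (YPR103W), the chymotrypsin-like beta5 subunit, changed by -0.87, -0.92 and -1.06. PRE2 had 349, 356 and 337 CPM in basket-containing pores, against 641, 624 and 639 CPM in the PrA control and 339, 337 and 325 CPM in the input. Basket-containing pores were not called against the input (0.059 ± 0.036, adjusted p = 0.13; -0.273 and called lower with upper-quartile factors), and the PrA control stood above it. Basket-less pores and all NPCs had less PRE2 than the input, at -0.40 ± 0.037 (adjusted p = 2.41e-10) and -0.55 ± 0.037 (adjusted p = 4.78e-13).

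The remaining beta genes held both extremes. PUP3 (YER094C, chrV:348729-349346), beta3, had 83.9, 83.6 and 78.7 CPM in basket-containing pores, against 255, 255 and 347 CPM in the PrA control. In the other pores it had 145, 144 and 158 CPM in basket-less pores and 124, 115 and 116 CPM in all NPCs, against 373, 406 and 381 CPM in the GFP control. All pore libraries were below all control libraries, and replicate 3 of the PrA control was above its partners. The log2 fold changes were -1.80 ± 0.11 (adjusted p = 1.19e-10), -1.37 ± 0.1 (adjusted p = 3.06e-09) and -1.71 ± 0.1 (adjusted p = 1.83e-10). PRE1 (YER012W, chrV:177835-178431), beta4, had 176, 187 and 187 CPM in basket-less pores, against 180, 184 and 191 CPM in the GFP control. These groups overlapped, and PRE1 was the 1 core gene not called there (log2 fold change -0.014 ± 0.063, adjusted p = 0.841). In basket-containing pores it had 124, 114 and 129 CPM, against 254, 249 and 204 CPM in the PrA control, apart from each other and called (-0.95 ± 0.064, adjusted p = 1.08e-12). PRE7 (YBL041W), beta6, had the smallest fall in basket-containing pores, with 247, 241 and 235 CPM, against 299, 294 and 312 CPM in the PrA control (-0.32 ± 0.044, adjusted p = 1.92e-07).

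**Figure D2:**
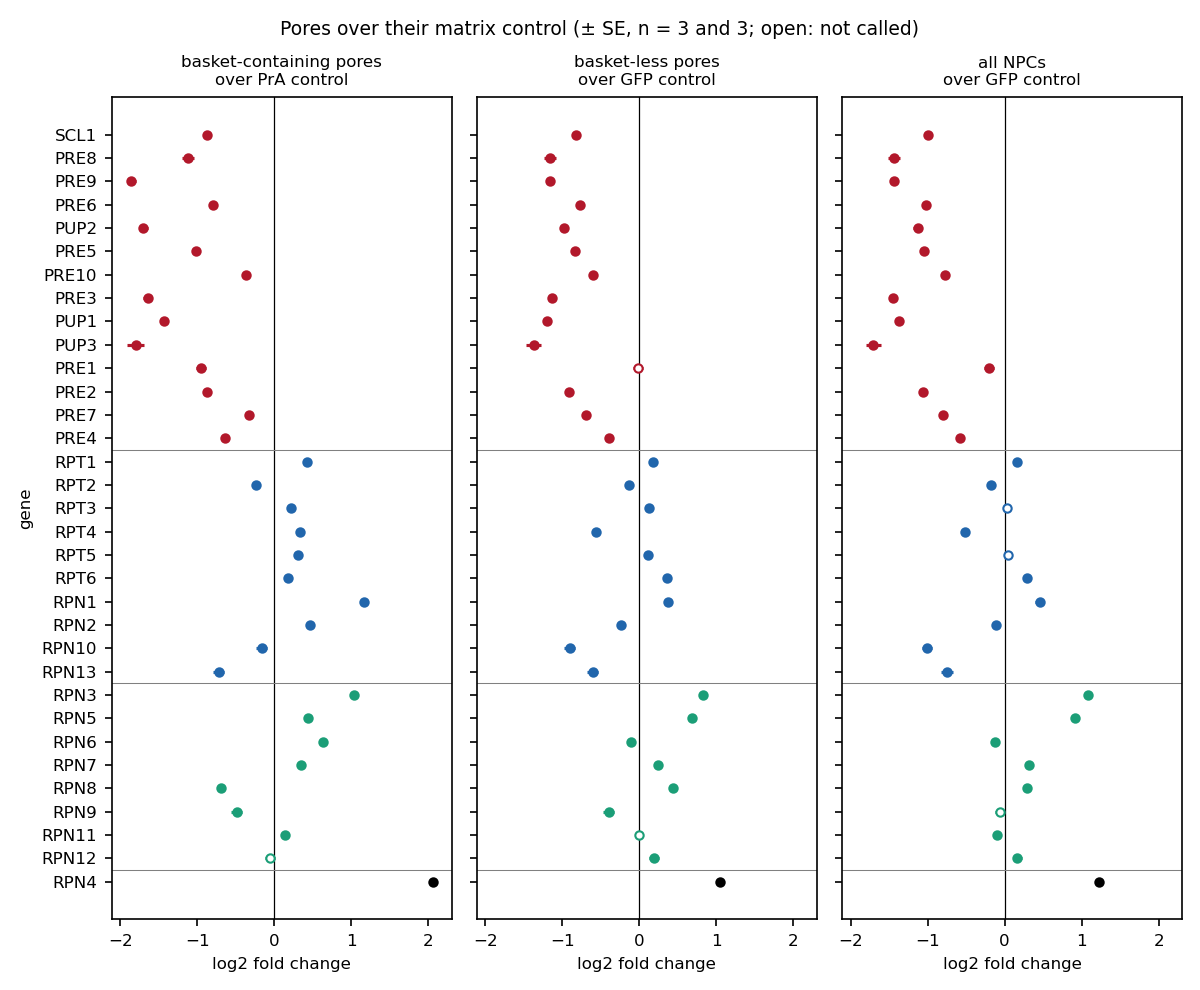
Log2 fold change of each member in basket-containing pores over the PrA control and in basket-less pores and all NPCs over the GFP control (points, bars are the standard error, n = 3 libraries per group, open points not called at an adjusted p of 0.05). The 14 core genes (red) lie left of 0 in every panel, base (blue) and lid (green) genes lie on both sides and shift left under upper-quartile scaling, and RPN4 (black) is the rightmost point.

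The base did not move as a unit. In basket-containing pores over the PrA control, 7 of 10 base genes were called higher and 3 lower, with a median of 0.26, but upper-quartile factors gave 3 higher and 5 lower, with a median of -0.08. For basket-less pores over the GFP control 5 were higher and 5 lower, with DESeq2 size factors 2 and 5, and with upper-quartile factors 1 and 7. In all NPCs over the GFP control 3 were higher and 5 lower, and with upper-quartile factors 1 and 8. Of all features, 43.8% to 47.1% were called higher and 35.5% to 46.5% lower in these comparisons with TMM factors. With upper-quartile factors, 35.7% of all features were higher and 55.2% lower in basket-containing pores over the PrA control. Those shares were 34.3% and 48.6% in basket-less pores, and 36% and 49.5% for all NPCs, over the GFP control. Upper-quartile scaling lowers the median of all features by 0.34 in basket-containing pores over the PrA control, by 0.269 in basket-less pores and by 0.289 for all NPCs over the GFP control, and DESeq2 size factors lower the last 2 by 0.12 and 0.124. Calls smaller than these shifts therefore depend on the scaling.

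The 6 ATPases that drive unfolding, RPT1 to RPT6, did not move alike. 5 rose and RPT2 (YDL007W) fell, by 0.23 on the log2 scale, in basket-containing pores over the PrA control, and the rises ran from 0.18 for RPT6 (YGL048C) to 0.43 for RPT1 (YKL145W). With upper-quartile factors RPT3, RPT4, RPT5 and RPT6 turned negative there, at -0.126, -0.001, -0.036 and -0.158. RPT4 (YOR259C, chrXV:812395-813708) was the ATPase that differed most between the pores. It had 499, 514 and 494 CPM in basket-containing pores, against 391, 372 and 429 CPM in the PrA control. In the other pores it had 260, 275 and 268 CPM in basket-less pores and 283, 271 and 276 CPM in all NPCs, against 400, 399 and 389 CPM in the GFP control. RPT4 was above its control in the first comparison and below it in the others, with no overlap. The log2 fold changes were 0.34 ± 0.046 (adjusted p = 1.69e-07), -0.56 ± 0.047 (adjusted p = 3.33e-11) and -0.52 ± 0.046 (adjusted p = 1.45e-10).

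RPN1 and RPN2 are the large scaffolds of the base, and RPN1 also docks the shuttle factors that deliver ubiquitinated proteins. RPN1 (YHR027C, chrVIII:161730-164711) had 863, 861 and 901 CPM in basket-containing pores, against 371, 367 and 434 CPM in the PrA control. In the other pores it had 577, 595 and 600 CPM in basket-less pores and 629, 628 and 621 CPM in all NPCs, against 449, 475 and 448 CPM in the GFP control. All pore libraries were above their control libraries. The log2 fold changes were 1.16 ± 0.054 (adjusted p = 2.23e-16), 0.37 ± 0.054 (adjusted p = 9.78e-07) and 0.45 ± 0.054 (adjusted p = 2.97e-08), and RPN1 had the highest value of the base genes in each comparison, though in basket-less pores RPT6, at 0.36 ± 0.036, did not differ from it beyond their errors. With upper-quartile factors the change in basket-less pores was 0.099 and not called. RPN2 (YIL075C) had 1190, 1180 and 1200 CPM in basket-containing pores, against 853, 812 and 914 CPM in the PrA control, and rose by 0.47 ± 0.04 (adjusted p = 4.18e-11). It changed by -0.23 ± 0.04 in basket-less pores (adjusted p = 1.02e-05) and by -0.12 ± 0.04 in all NPCs (adjusted p = 0.00953) over the GFP control. RPN1 and RPN2 are long, at 2982 and 2838 coding bases. Over all features, the smoothed trend of these changes on coding length, at 2800 and 3200 bases, was 1.169 and 1.274 in basket-containing pores. It was 0.662 and 0.715 in basket-less pores, and 0.882 and 0.961 for all NPCs. RPN1 stood close to the trend in basket-containing pores and below it in the others, and RPN2 below it throughout. The part of length here was not tested.

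The ubiquitin receptors of the cap, RPN10 and RPN13, both fell in all 3 comparisons. They are the subunit genes without an exact match to the letters searched. Their windows do hold near matches, ttcgccacc for RPN10 and ggtggcgaa for RPN13, and near matches were not searched for. RPN13 (YLR421C, chrXII:965090-965560), the shortest member at 471 coding bases, had 50.1, 57.8 and 56.1 CPM in basket-containing pores, against 88.5, 81.4 and 101 CPM in the PrA control. The groups did not overlap (-0.72 ± 0.077, adjusted p = 3.5e-09). RPN10 (YHR200W, chrVIII:499079-499885) had 184, 192 and 191 CPM in basket-less pores and 177, 177 and 174 CPM in all NPCs, against 332, 380 and 351 CPM in the GFP control. The pores were clearly below the control, at -0.90 ± 0.07 (adjusted p = 1.65e-10) and -1.01 ± 0.07 (adjusted p = 2.32e-11). In basket-containing pores RPN10 had 260, 251 and 247 CPM, against 260, 262 and 328 CPM in the PrA control. Those groups overlapped, and the call (-0.16 ± 0.069, adjusted p = 0.0356) was lost with DESeq2 size factors, in DESeq2's Wald test, with only the groups compared, without replicate 2 or replicate 3 of the basket-containing pores, and without replicate 3 of the PrA control, where the value was -0.047.

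In the lid, 5 of 8 genes were called higher and 2 lower in each of the 3 comparisons, with medians of 0.24 in basket-containing pores over the PrA control, 0.21 in basket-less pores and 0.23 for all NPCs over the GFP control. Of all features, 43.8%, 47.1% and 46.9% were called higher in these comparisons, and 46.5%, 35.5% and 37.6% lower. With upper-quartile factors the medians turned to -0.10, -0.06 and -0.06. The lid is built on PCI-domain subunits and on the pair Rpn8 and Rpn11, of which Rpn11 cuts the ubiquitin chain. RPN3 (YER021W, chrV:196948-198519), a PCI subunit, was the highest lid gene throughout. It had 283, 268 and 306 CPM in basket-containing pores, against 142, 143 and 133 CPM in the PrA control. In the other pores it had 228, 221 and 229 CPM in basket-less pores and 266, 274 and 268 CPM in all NPCs, against 130, 125 and 126 CPM in the GFP control. Each pore stood far above its control, with log2 fold changes of 1.03 ± 0.046 (adjusted p = 4.29e-17), 0.83 ± 0.047 (adjusted p = 1.44e-14) and 1.08 ± 0.046 (adjusted p = 3.65e-17). The input had 338, 314 and 338 CPM, above every purification.

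RPN5 (YDL147W), another PCI subunit, rose by 0.44 in basket-containing pores over the PrA control, by 0.69 in basket-less pores and by 0.92 for all NPCs over the GFP control. RPN8 (YOR261C, chrXV:815915-816931) was, beside RPN9, a lid gene called lower in basket-containing pores, with 153, 149 and 164 CPM, against 262, 251 and 236 CPM in the PrA control. In the other pores it had 286, 294 and 291 CPM in basket-less pores and 256, 262 and 268 CPM in all NPCs, against 219, 210 and 218 CPM in the GFP control. RPN8 was below its control in the first comparison and above it in the others, with no overlap. Its log2 fold changes were -0.69 ± 0.044 (adjusted p = 9.22e-14), 0.43 ± 0.043 (adjusted p = 1.05e-09) and 0.29 ± 0.043 (adjusted p = 1.14e-06), the last turning to -0.004 with upper-quartile factors. RPN6 (YDL097C), which clamps the lid to the core, showed the reverse: 0.63 ± 0.04 in basket-containing pores (adjusted p = 8.11e-14), -0.10 ± 0.04 in basket-less pores (adjusted p = 0.0204) and -0.13 ± 0.04 for all NPCs (adjusted p = 0.00482). The call in basket-less pores was lost without replicate 1 of the basket-less pores or replicate 2 of the GFP control, at -0.081 in both cases. RPN11 (YFR004W), the deubiquitinase, had small values, at 0.14, -0.002 and -0.10 in the same comparisons, and the first turned to -0.203 with upper-quartile factors. The lid counts leave out SEM1 (270 coding bases), which was listed with the proteasome-associated factors. SEM1 had a mean of 35.6 CPM in basket-containing pores, against 119 CPM in the PrA control. Its means were 54.4 CPM in basket-less pores and 48 CPM in all NPCs, against 110 CPM in the GFP control.

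RPN4 (YDL020C, chrIV:415113-416708, minus strand), the regulator, was the most enriched member. It had 608, 622 and 624 CPM in basket-containing pores, and lower values of 285, 288 and 287 CPM in basket-less pores and 328, 322 and 323 CPM in all NPCs. The PrA control had 150, 156 and 138 CPM, the GFP control 140, 142 and 133 CPM, and the input 222, 216 and 213 CPM. Every pore library lay above the input and every control library below it. Over the controls, RPN4 rose by 2.06 ± 0.041 in basket-containing pores (adjusted p = 1.54e-24), by 1.05 ± 0.041 in basket-less pores (adjusted p = 1.06e-17) and by 1.23 ± 0.041 in all NPCs (adjusted p = 2.39e-19). Over the input it rose by 1.51, 0.40 and 0.58 in those pores, and it fell by 0.55 in the PrA control and by 0.65 in the GFP control. None of these calls was lost with other scaling factors, with no filter, with the replicate block, with only the groups compared, in DESeq2's Wald test or on leaving out any 1 library. Among all features, the change in basket-containing pores over the PrA control lay at the 91st percentile. RPN4 was the only member called higher than the input in all 3 pores, which held for 35.6% of all features tested. RPN2 missed the threshold in basket-less pores alone (0.087 ± 0.041, adjusted p = 0.0529), and was called there with the replicate block.

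**Figure D3:**
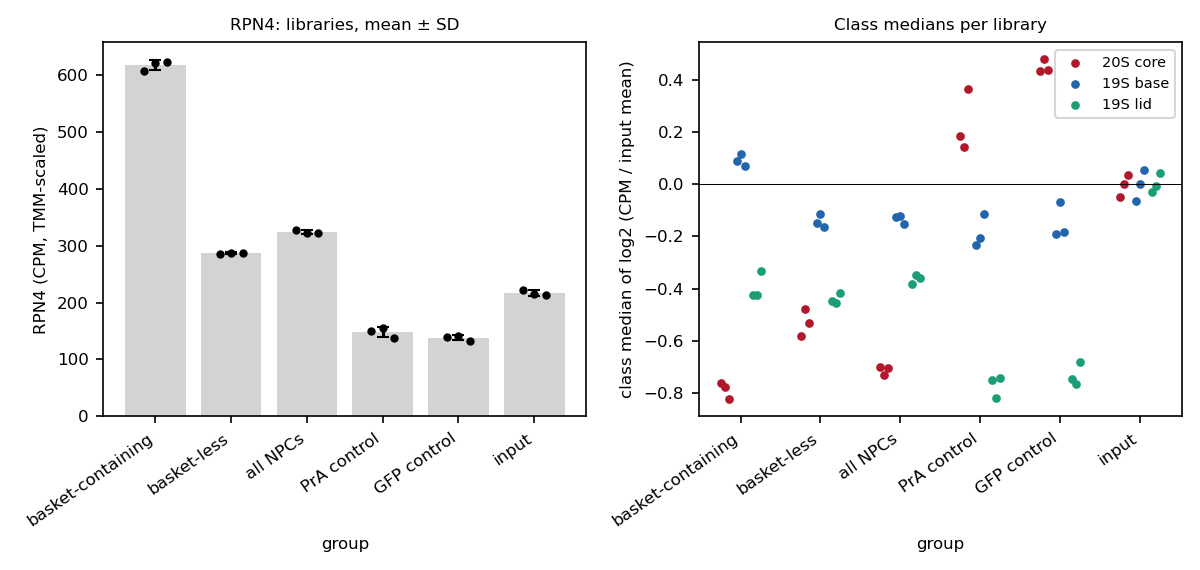
Left, RPN4 in CPM in each group (points are libraries, bars the mean ± SD, n = 3), highest in basket-containing pores and below the input only in the controls. Right, the median over each class of the log2 ratio of CPM to the input mean, 1 point per library: the core lies between -0.82 and -0.48 in the pores and between 0.14 and 0.48 in the controls, and the lid between -0.82 and -0.68 in the controls.

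Across the subunits and over the whole transcriptome, longer genes had higher fold changes over the controls. Core genes are short, with coding lengths of 597 to 867 bases (median 762), while base genes run from 471 to 2982 (median 1309.5) and lid genes from 825 to 1572 (median 1236). Across the 32 subunits, Spearman's rho between coding length and log2 fold change was 0.86 in basket-containing pores over the PrA control, 0.69 in basket-less pores and 0.75 for all NPCs over the GFP control. Within the classes it was lower: 0.31, 0.09 and 0.20 over the 14 core genes, and 0.82, 0.36 and 0.39 over the 18 cap genes. Across all 5773 features with a length it was 0.57, 0.53 and 0.58. These are descriptions across genes of the same libraries. The 769 other genes with coding lengths in the core range had medians of -0.79 (quartiles -1.64 and 0.03) in basket-containing pores over the PrA control, -0.25 (quartiles -0.67 and 0.19) in basket-less pores and -0.38 (quartiles -0.88 and 0.12) for all NPCs over the GFP control. The core medians of -0.98, -0.88 and -1.05 are near the first of these medians and below the lower quartile in the other 2 comparisons. With the length trend of all features taken off, the core medians were -0.26, -0.69 and -0.77, and the medians of the 18 cap genes were 0.31, -0.10 and -0.15. Split by class, the base medians were 0.262, -0.228 and -0.291, and the lid medians 0.459, 0.165 and 0.196. Between basket-containing and basket-less pores, where the core median minus the cap median was -0.419, taking off the trend turned the difference to 0.074, and to 0.019 with the controls taken off. The part of length in the difference between core and cap was not tested.

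**Figure D4:**
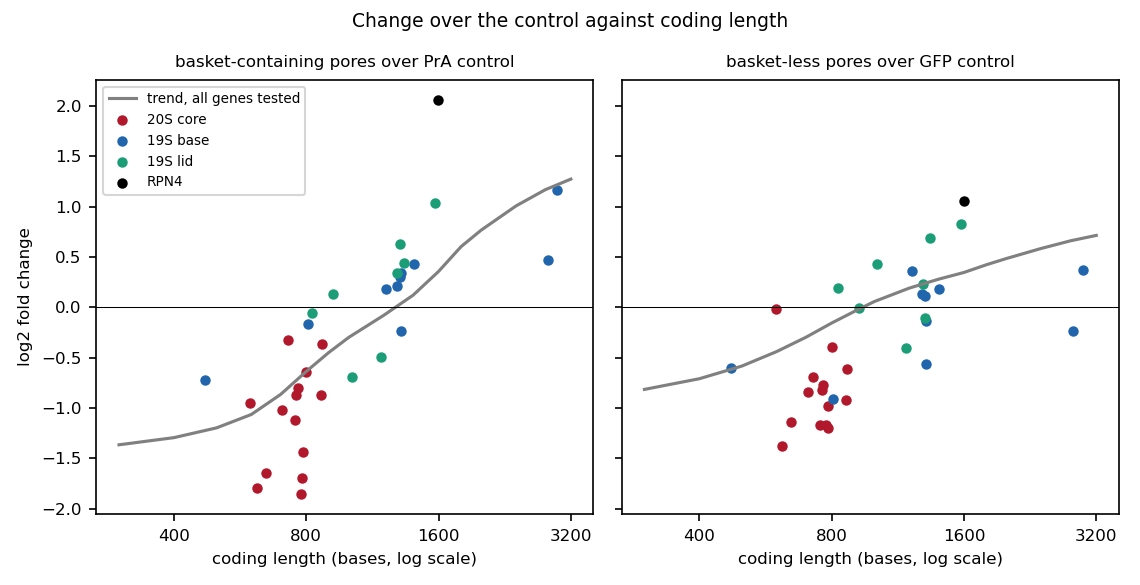
Log2 fold change of each member against its coding length in bases (log axis), for basket-containing pores over the PrA control (left) and basket-less pores over the GFP control (right); the line is the smoothed trend of all features with a length. The core genes (red) cluster at 597 to 867 bases, on both sides of the line on the left and nearly all below it on the right, and RPN4 (black) lies above the line in both.

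The order of the members was similar in the IgG and the GFP nanobody experiments, which share no library, but no more so than that of all features. Between basket-containing pores over the PrA control and basket-less pores over the GFP control, Pearson's r over the 32 subunits was 0.81 and Spearman's rho 0.80, and over all 6429 features both were 0.81. In both comparisons 17 subunits were called lower (30.5% of all features were) and 8 higher (36.6% of all features). 4 subunits were called in opposite directions (9.85% of all features): RPN2, RPT4 and RPN6 were higher in basket-containing and lower in basket-less pores, and RPN8 was the reverse. For RPN6 the second call depends on single libraries, as given above.

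Set directly against basket-less pores, basket-containing pores had a lower core median (-0.28), a higher base median (0.23) and a lid median near 0 (-0.045). There, 3 of 14 core genes were called higher and 11 lower, 6 of 10 base genes higher and 3 lower, and 4 of 8 lid genes higher and 4 lower, against 40.3% of all features higher and 42.2% lower. With DESeq2 size factors, which raise the median of all features by 0.13, these counts were 3 and 7 for the core, 7 and 1 for the base, and 4 and 2 for the lid, and the lid median turned to 0.086. With the controls taken off, as the difference between the 2 changes over control, 2 core genes were higher and 8 lower, 6 base genes higher and 1 lower, and 3 lid genes higher and 3 lower, against 36.6% and 39.5% of all features. With DESeq2 size factors these counts were 3 and 4 for the core, 7 and 0 for the base, and 4 and 1 for the lid, and that scaling raises the median of all features by 0.14. Without replicate 3 of the basket-containing pores, the members called lower numbered 6 in this comparison and 11 in the direct one, in place of 12 and 18. The core median was -0.209 with the controls taken off. The 769 other genes of core length had lower medians than the core, at -0.498 directly and -0.467 with the controls taken off. With the length trend of all features taken off, the core medians were 0.218 and 0.238. The part of length here was not tested.

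The members named next kept their calls and directions with other scaling factors, with no filter, with the replicate block, with only the groups compared, in DESeq2's Wald test and on leaving out any 1 library. RPN4 differed by 1.11 ± 0.04 directly (adjusted p = 1.08e-18) and by 1.01 ± 0.058 with the controls taken off (adjusted p = 3.37e-14). RPT4 differed by 0.91 ± 0.047 (adjusted p = 1.86e-15) and 0.90 ± 0.065 (adjusted p = 3.49e-12), and RPN8 by -0.90 ± 0.044 (adjusted p = 5.77e-16) and -1.12 ± 0.061 (adjusted p = 1.4e-14). RPT4 and RPN8 lie close together on chromosome XV, on either side of GCD1, and moved in opposite directions. Among the scaffolds, RPN1 differed by 0.80 ± 0.076 (adjusted p = 1.01e-09) and RPN2 by 0.70 ± 0.057 (adjusted p = 3.44e-11) with the controls taken off, and RPN6 by 0.73 ± 0.057 (adjusted p = 1.29e-11). In the core, PRE1 was the lowest, at -0.93 ± 0.089 (adjusted p = 1.77e-09), followed by PUP2 at -0.72 ± 0.081 (adjusted p = 1.77e-08) and PRE9 at -0.69 ± 0.075 (adjusted p = 7.63e-09), and PRE7 was the highest, at 0.37 ± 0.062 (adjusted p = 9.64e-06). With the length trend of all features taken off, the values with the controls taken off kept their sign but were smaller for RPN1 (0.24), RPN2 (0.17), PRE1 (-0.39), PUP2 (-0.30) and PRE9 (-0.27).

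Basket-less pores over all NPCs, both caught on the GFP nanobody, gave small differences. All 14 core genes were called higher, with changes of 0.12 (PRE7) to 0.33 (PUP3) and a median of 0.19, against 20.3% of all features higher and 22.8% lower. The 769 other genes of core length had a median of 0.13 there. PUP3 had 145, 144 and 158 CPM in basket-less pores, against 124, 115 and 116 CPM in all NPCs. The groups did not overlap (0.33 ± 0.11, adjusted p = 0.02), but the call was lost without replicate 3 of the basket-less pores (0.29), or without replicate 2 or 3 of all NPCs. The calls of PRE7, PRE1 and PUP2 also depended on single libraries. PRE7 lost its call with no filter and without any 1 of the libraries except replicate 1 of all NPCs (range 0.089 to 0.147), PRE1 without replicate 2 or 3 of the basket-less pores or replicate 1 or 3 of all NPCs (0.171 to 0.214), and PUP2 without replicate 2 or 3 of either pore (0.122 to 0.17). Of the 33 members, those called higher ran from 11 to 15 on leaving out 1 library. Of the base, 0 were higher and 1 lower (RPN2, -0.12 ± 0.04, adjusted p = 0.023), while 2 were higher at an unadjusted p under 0.05 and 1 in DESeq2's Wald test, and 5 were higher and 2 lower with only the groups compared. The call of RPN2 was lost with upper-quartile factors, and on leaving out replicate 1 or 3 of either pore (range -0.127 to -0.103 over the libraries left out). Of the lid, RPN8 was higher (0.15 ± 0.042, adjusted p = 0.007) and RPN3, RPN5 and RPN9 lower, with RPN9 (YDR427W) the lowest at -0.34 ± 0.069 (adjusted p = 0.000375). RPN4 was lower in basket-less pores, at -0.18 ± 0.04 (adjusted p = 0.000859).

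Against the input, the core fell in the pores and rose in the background purifications. In basket-containing pores 0 of 14 core genes were called higher and 12 lower, for basket-less pores 0 and 13, and for all NPCs 0 and 14. At an unadjusted p under 0.05 the counts of 0 stayed at 0, and DESeq2's Wald test called 1 core gene higher in basket-containing pores. The background was 43.9% higher and 45.5% lower in basket-containing pores, 44% and 36.1% in basket-less pores, and 44.6% and 37.1% for all NPCs. The core medians in these pores were -0.779, -0.538 and -0.709. The 769 other genes of core length had medians of -0.740, -0.207 and -0.337, so in basket-containing pores the core stood near them. With the length trend of all features taken off, the core medians were -0.087, -0.388 and -0.445. The part of length in this fall was not tested. In the PrA control 9 core genes were higher and 1 lower, against 37.5% and 41.2% of all features, and in the GFP control 11 were higher and 3 lower, against 37.2% and 42.4%. 6 core genes (SCL1, PUP2, PRE5, PRE10, PRE3 and PUP1) were lower than the input in all 3 pores and higher in both controls, a pattern shown by 5.65% of all features. SCL1 (YGL011C), alpha1, is an example, with 159, 157 and 156 CPM in basket-containing pores, 163, 171 and 172 CPM in basket-less pores and 151, 148 and 150 CPM in all NPCs. It had 288, 280 and 294 CPM in the PrA control, 290, 304 and 298 CPM in the GFP control, and 230, 259 and 257 CPM in the input. The 9 pore libraries all lay below the input and the 6 control libraries all above it. Without replicate 3 of the PrA control, 8 core genes were higher and 1 lower in that control.

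PRE9 was the only core gene called lower than the input in all 5 purifications, where the input had 322, 326 and 349 CPM. PRE1 and PRE4 were lower in 4, and in the PrA control they were not called, at -0.11 and -0.03. In basket-containing pores its log2 fold change over the input was -2.06 ± 0.055 (adjusted p = 6.38e-22), the lowest of all members. The lid was lower than the input in pores and controls alike. In basket-containing pores 1 lid gene was higher (RPN6, 0.41 ± 0.04, adjusted p = 4.36e-10) and 7 lower, with 0 and 8 for basket-less pores, 0 and 7 for all NPCs, 0 and 8 for the PrA control and 0 and 8 for the GFP control. The counts of 0 were also 0 at an unadjusted p under 0.05 and in DESeq2's Wald test. Of all features, 37.2% to 44.6% were called higher and 36.1% to 45.5% lower in these comparisons over the input. 6 of the 8 lid genes (RPN3, RPN7, RPN8, RPN9, RPN11 and RPN12), with PRE9 and RPN13, were lower in all 5 purifications, as were 16.7% of all features. RPN12 (YFR052W) had 63.2, 61.7 and 70.1 CPM in basket-containing pores, 90.6, 88 and 92 CPM in basket-less pores and 89.9, 89.2 and 87.1 CPM in all NPCs. It had 65.5, 62.4 and 75.2 CPM in the PrA control, 80.3, 81.5 and 75.5 CPM in the GFP control, and 156, 153 and 169 CPM in the input. Every purification library lay well below the input libraries.

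The base split over the input. In basket-containing pores 5 base genes were called higher and 2 lower, with 1 and 6 for basket-less pores, 1 and 5 for all NPCs, 2 and 7 for the PrA control and 2 and 6 for the GFP control, beside the shares of all features given above. Upper-quartile factors gave 2 base genes higher and 6 lower in basket-containing pores, 0 and 10 for basket-less pores, and 0 and 9 for all NPCs. The shares of all features with those factors were 35.9% higher and 54.2% lower, 31.6% and 49%, and 33.2% and 49.3%. Those higher in both controls were RPN2 and RPN10. RPN10 rose by 0.67 ± 0.07 in the PrA control (adjusted p = 2.71e-08) and by 1.00 ± 0.07 in the GFP control (adjusted p = 4.84e-11), where it was the highest member. In basket-less pores and all NPCs it was not called against the input (0.092 ± 0.072, adjusted p = 0.244, and -0.012 ± 0.072, adjusted p = 0.885). RPN1 was lower in both controls, by 0.77 and 0.54 on the log2 scale, and higher in basket-containing pores, where it rose by 0.40 ± 0.053 (adjusted p = 1.95e-07) but was not called with upper-quartile factors.

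The genes around the proteasome were read from 4 lists of 40 genes in all. Their counts stand against 43.8% of all features called higher and 46.5% lower in basket-containing pores over the PrA control, 47.1% and 35.5% for basket-less pores, and 46.9% and 37.6% for all NPCs over the GFP control. Assembly chaperones, which build the core and base before they join, had more genes lower than higher: 2 of 10 were called higher and 8 lower in basket-containing pores over the PrA control, 2 and 6 in basket-less pores and 2 and 6 for all NPCs over the GFP control. Their median coding length is 675 bases. The pair higher in basket-containing pores, named after their values were seen, were RPN14 (1.02 ± 0.065, adjusted p = 9.19e-14) and NAS2 (0.52 ± 0.093, adjusted p = 1.39e-05). Of 10 proteasome-associated factors, 6 were higher and 3 lower in basket-containing pores, and 4 and 5 in each of the other pores (median coding length 1242 bases). UBP6, the deubiquitinase that binds Rpn1, had 416, 421 and 429 CPM in basket-containing pores, against 158, 160 and 155 CPM in the PrA control. The groups were far apart (1.42 ± 0.038, adjusted p = 8.56e-22).

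Of 14 ubiquitin pathway genes, 10 were higher and 3 lower in basket-containing pores, 11 and 2 in basket-less pores, and 10 and 2 for all NPCs (median coding length 2131.5 bases; 8 and 3 in basket-less pores with upper-quartile factors). Among them, the ubiquitin ligase UFD4 rose by 1.63 ± 0.042 (adjusted p = 4.18e-22), 1.01 ± 0.043 (adjusted p = 3.98e-17) and 1.25 ± 0.042 (adjusted p = 2.92e-19), and the ligase RSP5 by 1.44 ± 0.04 in basket-containing pores (adjusted p = 1.67e-21). All 6 regulators of RPN4 were called higher and 0 lower in all 3 comparisons. In basket-less pores 4 of 6 were higher with upper-quartile factors and 5 of 6 in DESeq2's Wald test. The median coding length of the regulators, 2716.5 bases, is the longest of the 4 lists. HSF1, the heat shock factor that binds the RPN4 promoter, had 725, 754 and 734 CPM in basket-containing pores, against 164, 175 and 153 CPM in the PrA control and 117, 114 and 103 CPM in the input. It rose by 2.17 ± 0.052 over the control (adjusted p = 7.34e-23), and with the controls taken off the change was 1.20 ± 0.073 larger than in basket-less pores (adjusted p = 1.01e-13). MUB1, which helps mark Rpn4 for degradation, rose by 1.02 ± 0.048 in basket-less pores (adjusted p = 3.46e-16) and by 1.34 ± 0.047 in all NPCs (adjusted p = 6.35e-19). The part of coding length in these list counts was not tested.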

How the data were processed

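Poly(A) RNA-seq libraries of 18 samples were read from a deposited table of raw gene counts, which the authors made with STAR and featureCounts on the R64 genome, per the submitters' processing notes, which also list DESeq2. Strandedness and the treatment of multi-mapping reads are not stated in those sources. No column outside the 18 libraries holds per-sample values. No member overlaps another gene in the RefSeq annotation used, which leaves dubious reading frames unchecked.

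All 7127 features entered 1 fit in edgeR 4.0.16 (R 4.3.3, limma 3.58.1): low-count filter of filterByExpr, TMM factors, 1 coefficient per group without a replicate block, and quasi-likelihood tests of 11 contrasts adjusted by Benjamini-Hochberg. The steps were tested on simulated data. Classes are described by counts and medians beside those of all features. The length trend is a lowess curve (span 0.3) of log2 fold change on log2 coding length, and coding lengths and upstream sequences are RefSeq R64. Alternatives were DESeq2 size factors, upper-quartile factors, no filter, a replicate block, only the groups compared, the DESeq2 1.42.0 Wald test, removal of the length trend and leaving out each library.

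Same-numbered libraries deviated together (r over 0.1) in 3 of 45 pairs, so the numbers were not taken as pairing. The members and gene lists were chosen with earlier results of these data known. All 33 members may be named. RPN4 and the highest and lowest member of each class and comparison are given in full, others as examples of a role. Related genes are given by smallest adjusted p, at most 4 per comparison, and SEM1 is given beside the lid. Counting error is small at these depths, and the intervals quoted are standard errors between libraries.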

Additional observations from a re-analysis of the deposited data

Results flagged for a closer look

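24 of the 33 members changed by a different amount over their own control in basket-containing pores than in basket-less pores, by edgeR's quasi-likelihood test of the difference itself (adjusted p under 0.05). Among all features 36.6% differed upwards and 39.5% downwards, so differing is common in these libraries. The values are the log2 change in basket-containing pores over the PrA control minus the log2 change of basket-less pores over their GFP control, and the matrix and the basket differ together between them.

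RPN4, the regulator, had the largest positive difference, at 1.009. Of the base, RPT4 differed by 0.904, RPN1 by 0.796, RPN10 by 0.745, RPN2 by 0.703, RPT1 by 0.248, RPT5 by 0.195 and RPT6 by -0.18. Of the lid, RPN6 differed by 0.733, RPN3 by 0.202, RPN11 by 0.14, RPN12 by -0.242, RPN5 by -0.243 and RPN8 by -1.118, the largest negative difference. Of the core, PRE7 differed by 0.366 and PRE10 by 0.247, PRE5 by -0.18, PUP1 by -0.239, PRE4 by -0.249, PUP3 by -0.422, PRE3 by -0.51, PRE9 by -0.691, PUP2 by -0.716 and PRE1 by -0.933. With DESeq2 size factors the calls of PRE5, PUP1, PUP3, PRE4, RPT6, RPN5 and RPN12 were lost, and with upper-quartile factors those of RPT5, RPN3 and RPN11. On leaving out 1 library, RPN11 lost its call in 6 cases (range 0.107 to 0.264), and RPN12 without replicate 3 of the basket-containing pores or of the PrA control (-0.296 to -0.168). Without replicate 3 of the basket-containing pores the calls of PRE5 (-0.021), PUP1 (-0.092), PUP3 (-0.27), PRE4 (-0.124) and RPT6 (-0.062) were lost too. The causes of these differences were not tested.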

How the results depend on the processing

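The fall of the core over the controls, its rise in the controls over the input and the rise of RPN4 in the pores kept their direction with other scaling factors, no filter, the replicate block, only the groups compared, the Wald test, the length trend removed and 1 library left out. Upper-quartile factors turned the most members; they lower pore values over the controls and the input. The members higher became 7 in basket-containing pores over the PrA control (13 with TMM factors), 5 in basket-less pores (11) and 4 for all NPCs (9) over the GFP control, and 3 (7), 1 (2) and 1 (2) in the same pores over the input. There these members turned: RPN11 -0.203, RPT3 -0.126, RPT4 -0.001, RPT5 -0.036 and RPT6 -0.158 in basket-containing pores over the PrA control, RPN12 -0.08, RPN7 -0.033, RPT1 -0.088, RPT3 -0.139 and RPT5 -0.159 for basket-less pores over the GFP control, and RPN12 -0.123, RPN8 -0.004, RPT1 -0.129, RPT3 -0.259 and RPT5 -0.247 in all NPCs over the GFP control. Over the input they were PRE2 -0.273, RPT1 -0.197, RPT3 -0.297, RPT5 -0.289 and RPT6 -0.31 in basket-containing pores, RPN10 -0.16, RPN2 -0.165 and RPT6 -0.115 in basket-less pores, and RPN2 -0.069, RPN5 -0.203 and RPT6 -0.209 in all NPCs.

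With DESeq2 size factors, the DESeq2 Wald test, no filter or only the groups compared, members higher in basket-less pores numbered 7 over the GFP control and 1 over the input. Members lower in basket-containing over basket-less pores (18) numbered 10 with DESeq2 size factors, the Wald test or no filter, and those with the controls taken off (12) numbered 5, 6 and 6. RPT5 turned to -0.009 for basket-less pores over the GFP control with DESeq2 size factors and the Wald test, and RPT3 to -0.094 and -0.093 in all NPCs. In basket-containing over basket-less pores, SCL1 and RPT6 turned to 0.029 and 0.016 under both and to 0.022 and 0.009 with no filter. With only the groups compared, RPT3 and RPT5 turned to -0.102 and -0.091 in all NPCs and to -0.004 and -0.024 for basket-less pores over the GFP control.

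With the length trend removed, the core median minus the cap median was -0.567 (-1.244 before) in basket-containing pores over the PrA control, -0.583 (-0.998) in basket-less pores and -0.622 (-1.089) for all NPCs over the GFP control, 0.062 (0.166) in basket-less pores over all NPCs, -0.055 (-0.346) in basket-less pores and -0.091 (-0.448) for all NPCs over the input, and 0.656 (0.741) in the GFP control over the input. It reversed to 0.074 (-0.419) in basket-containing over basket-less pores, 0.019 (-0.333) with the controls taken off, and 0.183 (-0.686) in basket-containing pores over the input.

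Leaving out 1 library at a time kept 315 of 363 member results. Members lower ran from 11 to 18 in basket-containing over basket-less pores and from 6 to 13 with the controls taken off, both lowest without replicate 3 of the basket-containing pores, where PRE6 turned positive in both comparisons (ranges -0.177 to 0.041 and -0.066 to 0.146), as did RPT6 (-0.143 to 0.011) and SCL1 (-0.126 to 0.034) in the direct one. The replicate block gave 13 members higher and 19 lower in basket-containing pores over the PrA control, as without it, and changed 2 of 363 member calls. Same-numbered libraries correlated from -0.161 to 0.28, and the numbers were not taken as pairing. The PrA control with the input gave positive values throughout, at 0.124, 0.098 and 0.28 for replicates 1, 2 and 3. For that comparison the block left 11 members higher and 17 lower, as without it. The cause of the changes under these alternatives was not tested. All values are relative, as shares of a library or after TMM scaling, so amounts of RNA are not given, and replicates may be technical.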
